A study of Mus musculus with 8 samples.

Results

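The proteasome genes described here were taken as every gene whose symbol begins with Psma, Psmb, Psmc, Psmd or Psme followed by a digit, where the platform annotation pairs a probe set with that gene alone. This choice used names and no measured value. It gave 76 of 22690 probe sets, which stand for 43 of the 12393 genes with a probe set. Of the 43 genes, 41 encode proteasome subunits, activators or assembly chaperones, and Psmc3ip and Psme3ip1 match by symbol alone. The 41 are 15 core genes (8 alpha and 7 constitutive beta), 20 genes of the regulatory particle (its assembly chaperones Psmd5, Psmd9 and Psmd10 among them), the immunoproteasome genes Psmb8, Psmb9 and Psmb10, the activator gene Psme1, and the other activator genes Psme3 and Psme4.

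The proteasome is the cylinder-shaped protease that breaks down ubiquitin-tagged proteins in cytosol and nucleus. Alpha rings gate its core, beta rings inside hold the proteolytic sites, and a regulatory particle of ATPase and non-ATPase subunits recognises, deubiquitinates and unfolds the substrate. Interferon exchanges the catalytic beta subunits for immunoproteasome forms that favour peptides for class I antigen presentation, and the transcription factors Nrf1 and Nrf2 are known to act on subunit genes when the proteasome is impaired or oxidants rise.

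Liver RNA came from female C57BL/6J mice aged 4 weeks, 4 wild-type (WT) and 4 labelled TrxR1/Gsr-null, with 1 Affymetrix array per animal. TrxR1, encoded by Txnrd1, reduces cytosolic thioredoxin, and Gsr reduces glutathione. The labels give no allele, no promoter that would drive a deletion and no treatment, so the cells in which each gene was lost are not stated. The study's title asks about the Nrf2 response of these livers.

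All levels are log2 expression values after GCRMA, and a difference is the TrxR1/Gsr-null mean minus the WT mean on that scale. The low-value limit of 3.38 bounds the lowest 40% of genes by mean. Genes under it were left out of the gene test unless at least 4 arrays exceeded it, which left 7534 genes. A gene was called when the limma p, adjusted over all 7534 by Benjamini-Hochberg, was below 0.05. Gsr was lower in the null livers but stayed above the low-value limit, with WT values of 7.03, 7.21, 7.21 and 7.20 and null values of 6.02, 5.89, 5.82 and 6.31. Txnrd1 was higher in the null livers, with WT values of 9.90, 9.93, 9.88 and 9.56 and null values of 12.07, 12.01, 11.65 and 11.96. Which part of either gene was deleted is not given, so neither probe set settles the label. Array medians lay between 3.56 and 3.78. WT replicates 3 and 4 had the narrowest value distributions, with interquartile ranges of 3.97 and 3.74 against at least 4.31 on the other arrays. The 3′ minus 5′ difference of the Actb control, a measure of RNA integrity, was 1.50 and 1.57 on them, 1.76 on null replicate 3 and at most 1.17 on the others. All 9 measured hepatocyte markers were tested and none was called, but 8 of 9 differences were below 0. Their median was -0.34, against 0.10 for all genes. Their summed linear level was 76740 to 90278 in WT and 53607 to 76034 in null livers, without overlap.

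Most proteasome genes were not called. Of the 40 proteasome genes tested, 1 was called higher and 0 lower, against 4.47% higher and 2.15% lower of all genes tested. That gene was Psmd5, an assembly chaperone of the regulatory particle. The unadjusted limma p was below 0.05 in 5 of the 40, or 12.5%, against 22.9% of all genes. The difference was above 0 in 32 of 40 genes, 80.0%, against 60.1% of all genes, and its median was 0.19 against 0.10. In 5 genes (Psma7, Psmb5, Psmd5, Psmd12 and Psme4) every null value lay above every WT value, against 10.7% of all genes, and in 0 genes did every null value lie below, against 5.84%. The 95% interval of the difference stayed within a 2-fold change for 29 of 40 genes, 72.5%, against 63.7% of all genes. Some settings called more genes. With the lowest 60% of genes left out 2 were higher (Psme4 added), against 5.79% of all genes, as with the mean of all probe sets, against 5.21%. With array weights 3 were higher (Psmb5 and Psme4 added), against 7.67%, as with a trended, robust variance prior, against 5.18%. With replicates 1 and 2 against 3 and 4 as a covariate 4 were higher (Psmb5, Psmd7 and Psme4 added) and 1 lower (Psmb2), against 8.59% and 4.43%. In whole tissue, fewer cells of a type and less RNA per cell cannot be told apart.

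**Figure D1:**
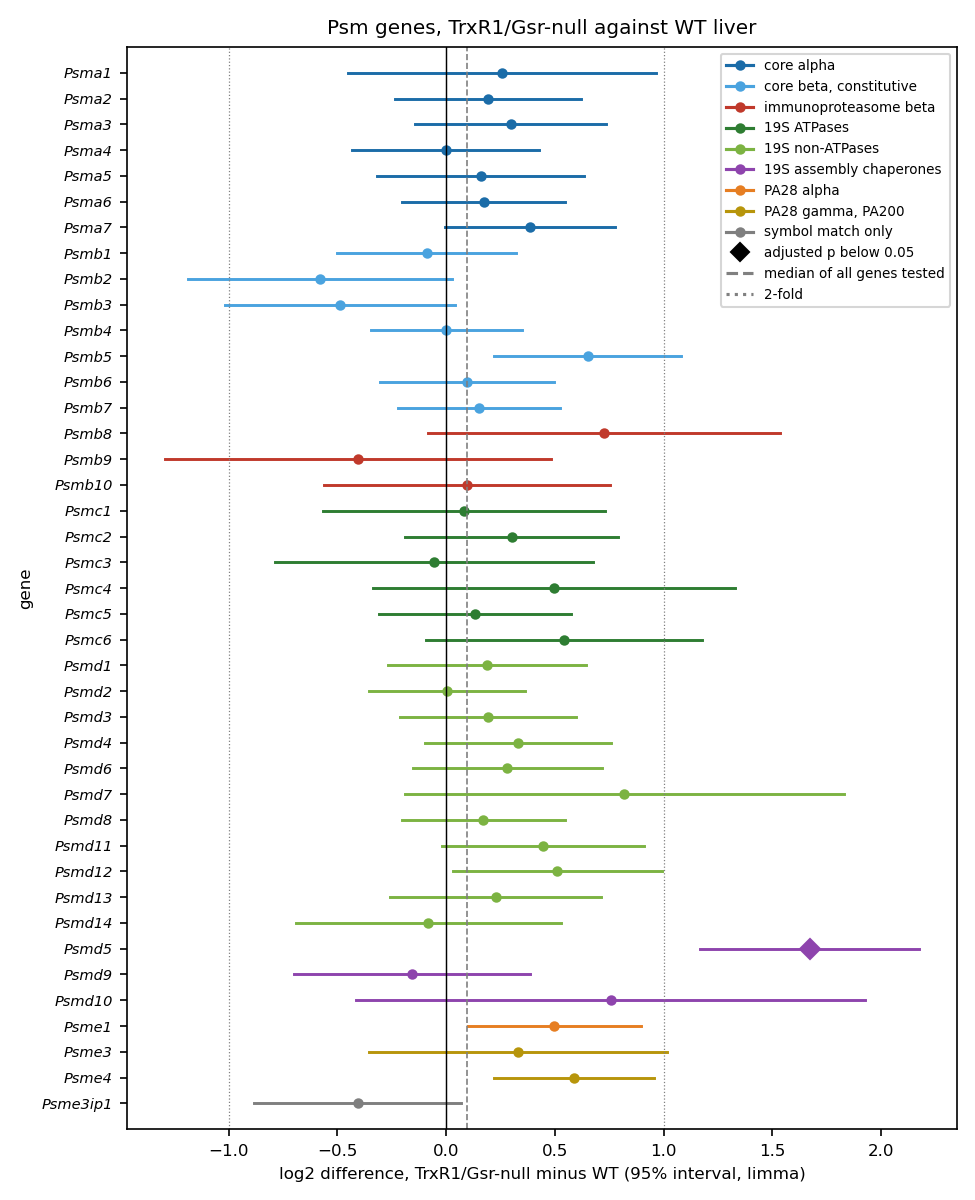
Log2 difference, TrxR1/Gsr-null minus WT, of the 41 Psm genes tested (points, 4 arrays per group) with limma 95% intervals (lines), coloured by class (19S is the regulatory particle); the diamond marks an adjusted p below 0.05, the dashed line the median of all genes and dotted lines a 2-fold change. Psmd5 stands alone at 1.67, while the other genes lie between -0.58 and 0.82.

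Psmd5 (also known as S5b) caps a regulatory-particle ATPase during assembly and is absent from the finished proteasome. Its single probe set read 7.29, 7.14, 6.98 and 6.42 in WT and 8.34, 8.54, 8.82 and 8.81 in null livers. The lowest null value lay above the highest WT value. The difference was 1.67 ± 0.23 (SE, n = 4 each), a 3.19-fold rise with a 95% interval of 2.25- to 4.51-fold and limma adjusted p = 0.00208. The difference was 1.23 within replicates 1 and 2 and 2.12 within replicates 3 and 4, and it was 1.41, or 2.67-fold, without WT replicates 3 and 4. Psmd5 was called under each of its 21 alternative settings (no other proteasome gene in more than 5). Among the 20 tested genes nearest to it on the chromosome, 0 were called, against 4.47% higher and 2.15% lower of all genes. Their differences ran from -0.39 to 0.96.

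The other assembly chaperones of the regulatory particle were not called. Psmd10, also named gankyrin, had WT values of 7.43, 7.05, 6.19 and 4.66 and null values of 7.52, 7.43, 6.83 and 6.56. WT replicate 4 was the lowest array, the groups overlapped, and the difference was 0.76 ± 0.53 (SE) with a 95% interval from -0.41 to 1.92. Without WT replicates 3 and 4 it was -0.15. Psmd9 had a difference of -0.16 ± 0.24 (SE).

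The upstream bases of 3 genes are shown because their groups did not overlap and their differences had the smallest adjusted p of the 40. They are the 250 bases before the RefSeq start in GRCm38.p6, read 5′ to 3′ on the gene's strand. Capitals mark TGACNNNGC, the core of the antioxidant response element, searched on both strands.
Psmd5, chr2:34870963-34871212, minus strand: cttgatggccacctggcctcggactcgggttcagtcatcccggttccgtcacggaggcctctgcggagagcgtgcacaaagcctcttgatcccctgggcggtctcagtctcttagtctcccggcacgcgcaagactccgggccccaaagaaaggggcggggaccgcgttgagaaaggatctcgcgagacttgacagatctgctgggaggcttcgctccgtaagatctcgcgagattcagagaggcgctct
Psme4, chr11:30771525-30771774, plus strand: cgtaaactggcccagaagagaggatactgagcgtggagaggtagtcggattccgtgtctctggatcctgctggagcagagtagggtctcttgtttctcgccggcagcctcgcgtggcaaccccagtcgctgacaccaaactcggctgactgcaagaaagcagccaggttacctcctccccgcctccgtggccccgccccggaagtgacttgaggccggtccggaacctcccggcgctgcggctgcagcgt
Psmb5, chr14:54617996-54618245, minus strand: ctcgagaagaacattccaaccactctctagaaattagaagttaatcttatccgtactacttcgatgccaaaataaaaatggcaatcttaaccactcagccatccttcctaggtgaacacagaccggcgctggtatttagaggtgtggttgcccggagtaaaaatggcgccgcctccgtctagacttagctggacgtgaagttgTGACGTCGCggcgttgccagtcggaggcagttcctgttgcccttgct
The match upstream of Psmb5 begins 47 bases before its start, and these letters do not occur in the Psmd5 and Psme4 windows. Windows were matched to all 43 genes of the rule, with Psmc3ip and Psme3ip1 not set aside. Of 39 windows matched to 36 of these genes, 5 held the motif (Psmb5, Psmb6, Psmc6, Psmd9 and Psmd12). That is 12.8%, against 10.2% of all 32851 windows of this length. Of these 5 genes, Psmb5 and Psmd12 had every null value above every WT value. The same held for 5 of the 40 proteasome genes tested and 10.7% of all genes. Psmb6 differed by 0.10, Psmc6 by 0.54 and Psmd9 by -0.16. Whether the motif bears on any difference was not tested.

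Core particle genes were not called in either direction. Of the 14 tested, 10 had differences above 0, the median was 0.16, and the 95% interval stayed within a 2-fold change for 11. The alpha genes, whose products form the outer rings and the gate, lay between -0.0027 and 0.39, with 6 of 7 above 0 and all 7 intervals within a 2-fold change. Psma7 was the alpha gene whose groups did not overlap, with WT values of 9.53, 9.72, 9.78 and 9.70 and null values of 10.04, 9.82, 10.35 and 10.08. Its difference was 0.39 ± 0.18 (SE), with limma adjusted p = 0.222. Psma8, the testis-associated alpha gene, stayed below the low-value limit on all 8 arrays and was not tested.

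The constitutive beta genes spread to both sides, with 4 of 7 differences above 0 and a median of 0.00. Psmb5, which carries the chymotrypsin-like site, read 9.99, 9.87, 9.68 and 9.59 in WT and 10.06, 10.43, 10.65 and 10.59 in null livers. The groups did not overlap, though null replicate 1 lay close to WT replicate 1. The difference was 0.65 ± 0.19 (SE), 1.57-fold with a 95% interval from 0.22 to 1.08 on the log2 scale, and limma adjusted p = 0.0747. It was called in 3 of 20 alternative settings, with adjusted p from 0.0418 to 0.365 over all of them.

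Psmb2, a structural beta subunit, had WT values of 7.02, 7.08, 7.64 and 7.93 and null values of 6.33, 6.69, 7.17 and 7.16. In both groups replicates 3 and 4 were higher than replicates 1 and 2, and the groups overlapped. The difference was -0.58 ± 0.27 (SE), with limma adjusted p = 0.243 and 0.0372 with that split of the replicates as a covariate. Psmb3 differed by -0.49 ± 0.24 (SE), with limma adjusted p = 0.258. Its other probe set, of similar brightness, stood at -0.12, and without null replicate 3, where that probe set became the brighter, the difference was -0.075. Psmb6 and Psmb7, the other catalytic beta genes, differed by 0.10 and 0.15. Psmb4 and Psmb1 differed by 0.00 and -0.09. The other Psmb4 probe set, of similar brightness, stood at 0.57 ± 0.29 (SE), with overlapping groups.

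Among the 6 ATPase genes, whose products unfold the substrate, 0 were called, 5 differences were above 0 and the median was 0.22. Psmc6 had the largest, with WT values of 10.38, 10.26, 10.04 and 8.996 and null values of 10.38, 10.54, 10.44 and 10.49. WT replicate 4 stood low, the groups overlapped, and the difference was 0.54 ± 0.29 (SE), but 0.23 without that array. The other Psmc6 probe sets stood at 0.63 and 0.92, and at 0.47 and 0.94 without WT replicate 4. Neither was called with or without that array. The other ATPase genes, Psmc1 to Psmc5, lay between -0.06 and 0.50.

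Of the 11 non-ATPase genes, 0 were called, 10 differences were above 0 and the median was 0.23. Psmd12, a scaffold subunit of the lid, read 9.84, 9.93, 9.79 and 9.09 in WT and 10.29, 10.12, 10.27 and 10.00 in null livers. Its groups did not overlap, and the difference was 0.51 ± 0.22 (SE) with limma adjusted p = 0.192. Psmd7, which pairs with the deubiquitinase subunit Psmd14, had WT values of 8.20, 8.39, 6.76 and 6.77 and null values of 8.95, 8.73, 7.41 and 8.30. WT replicates 3 and 4 and null replicate 3 were the low arrays. The difference was 0.82 ± 0.45 (SE), with limma adjusted p = 0.322 and 0.0404 with replicates 1 and 2 against 3 and 4 as a covariate. Without WT replicates 3 and 4 the Psmd7 difference was 0.055. Psmd14 differed by -0.08, the ubiquitin receptor Psmd4 by 0.33, and the scaffold genes Psmd1 and Psmd2 by 0.19 and 0.00.

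The activators bind the core in place of the regulatory particle. Psme4 encodes PA200, a nuclear activator linked to histone breakdown and DNA repair. Its brightest probe set read 9.97, 9.95, 10.12 and 9.81 in WT and 10.46, 10.41, 10.72 and 10.61 in null livers, without overlap. The difference was 0.59 ± 0.17 (SE), 1.50-fold with a 95% interval from 0.22 to 0.95 on the log2 scale, and limma adjusted p = 0.0643. Psme4 was called in 5 of 21 alternative settings, with adjusted p from 0.0283 to 0.187. Of its 20 nearest tested neighbours 3 were called higher (Acyp2, Ppp4r3b and Stk10) and 0 lower, against 4.47% and 2.15% of all genes. The adjoining gene Acyp2, an acylphosphatase, rose by 2.07 ± 0.34 (SE), with limma adjusted p = 0.00601. The part of these neighbours in the Psme4 difference was not tested. Psme1, the interferon-inducible PA28 alpha, read 9.99, 9.63, 9.58 and 9.53 in WT and 10.19, 10.20, 9.98 and 10.35 in null livers. WT replicate 1 overlapped null replicate 3, and the difference was 0.50 ± 0.18 (SE), with limma adjusted p = 0.130. Psme3, the nuclear PA28 gamma, differed by 0.33 ± 0.31 (SE).

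**Figure D2:**
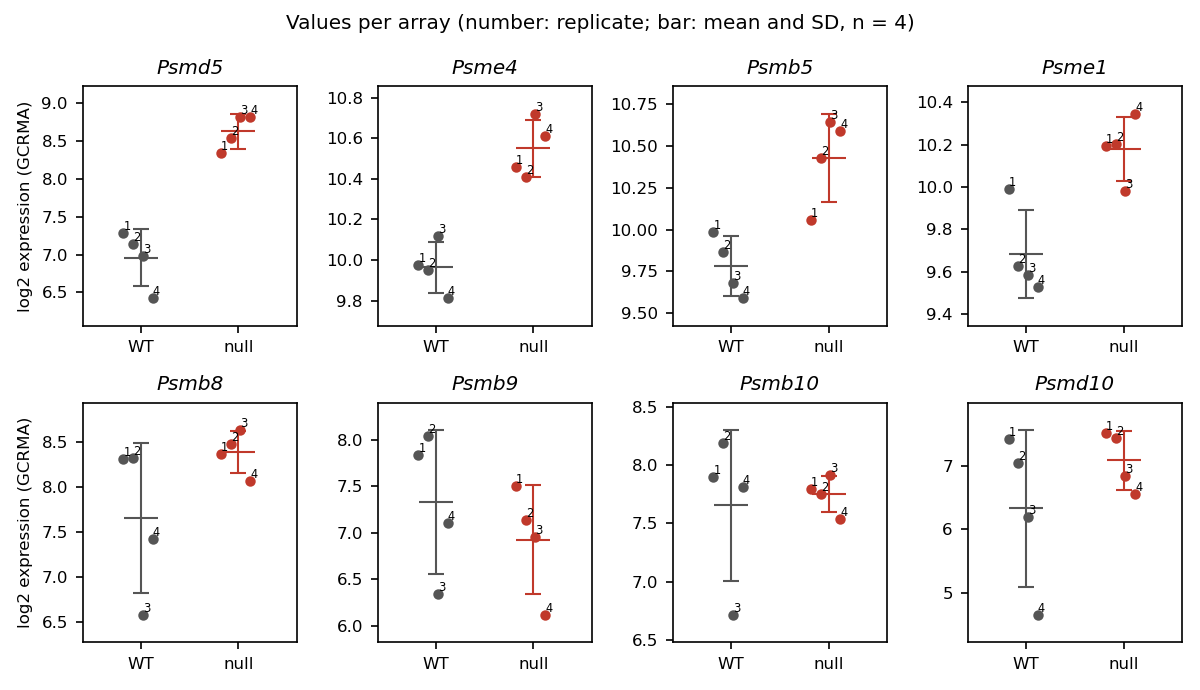
Log2 expression (GCRMA) of 8 proteasome genes on each array; points are single livers numbered by replicate, bars the mean and SD of 4 arrays, and each panel has its own axis. Psmd5, Psme4 and Psmb5 show no overlap of the groups, and WT replicate 3 is the lowest WT array for Psmb8, Psmb9 and Psmb10.

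The immunoproteasome genes Psmb8, Psmb9 and Psmb10 and the activator gene Psme1 were not called. Of these 4 genes, 3 had differences above 0, and the median was 0.30. Without Psme1, 2 of 3 differences were above 0 and the median was 0.10, as for all genes. Psmb8, which replaces Psmb5, read 8.31, 8.32, 6.58 and 7.42 in WT and 8.37, 8.47, 8.63 and 8.07 in null livers. Psmb9, which replaces Psmb6, read 7.84, 8.04, 6.35 and 7.10 in WT and 7.50, 7.14, 6.95 and 6.12 in null livers. Psmb10, which replaces Psmb7, read 7.90, 8.19, 6.72 and 7.82 in WT and 7.80, 7.75, 7.92 and 7.54 in null livers. All 3 genes were lowest among the WT arrays in replicate 3, and all had overlapping groups. The differences were 0.73 ± 0.36 (SE) for Psmb8, -0.40 ± 0.40 for Psmb9 and 0.10 ± 0.30 for Psmb10, with limma adjusted p = 0.269, 0.594 and 0.888. Without WT replicate 3 they were 0.37, -0.73 and -0.22. The 95% intervals ran from -0.08 to 1.53 for Psmb8 and from -1.29 to 0.48 for Psmb9, so changes beyond 2-fold lie inside both.

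Psmb8 and Psmb9 lie close together in the H2 region. Across WT livers the Psmb8 minus Psmb9 value stayed within -0.09 to 0.15 of its WT mean, while in the null livers it was 0.54, 1.01, 1.35 and 1.62 above that mean. All null livers lay above all WT livers. The mean change was 1.13. The pair was chosen after its values were seen, so this is a description with no test. For the exchange pairs the change was 0.08 for Psmb8 minus Psmb5, -0.50 for Psmb9 minus Psmb6 and -0.06 for Psmb10 minus Psmb7, and in each the groups overlapped.

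Of 11 tested genes of class I antigen processing, 2 were called lower and 0 higher, against 2.15% and 4.47% of all genes. H2-D1, a class I heavy chain, fell by 2.08 with limma adjusted p = 0.000201, and by 0.89 with adjusted p = 0.130 when all its probe sets were averaged. H2-K1, the other called heavy chain, fell by 3.60 with limma adjusted p = 0.0378, and by 2.32 when all its probe sets were averaged. It was no longer called when WT replicate 2, null replicate 1 or null replicate 3 was omitted, where p reached 0.0996. Without WT replicate 1, 3 or 4 or null replicate 4, where another of its probe sets became the brightest, it was called with a difference as small as -1.18. Tap1, the peptide transporter next to Psmb9, differed by -0.69 ± 0.36 (SE), with limma adjusted p = 0.294. Of 19 interferon-response genes tested, 1 was called lower and 0 higher, against 2.15% and 4.47% of all genes. Their median difference was -0.26. The called gene was Usp18, which fell by 1.25 with limma adjusted p = 0.0180. It was not called without WT replicate 3 or null replicate 2, where p reached 0.0583. In the H2 region around Psmb8 and Psmb9, 10 genes on the list were tested. Of these, 1 was called higher and 0 lower, against 4.47% and 2.15% of all genes. The called gene was the class II gene H2-Aa, which rose 4.15-fold with limma adjusted p = 0.0186. It rose by 1.13 on the log2 scale, against 2.05, when all its probe sets were averaged, and was not called without WT replicate 3 or null replicate 1, 2 or 4, where p reached 0.0604. Leukocytes carry these genes as well. Of 14 leukocyte markers measured, 5 were tested. Of these, 1 was called lower and 0 higher, against 2.15% and 4.47% of all genes. The called marker was Cd52, a call lost without any array but WT replicate 3 (adjusted p up to 0.0914). Summed linear levels of the leukocyte markers were 428 to 498 in WT and 396 to 521 in null livers. Of 11 macrophage markers tested, 0 were called, with sums of 7301 to 12196 in WT and 6325 to 8821 in null livers. Their part in these differences was not tested. H2 genes differ in sequence between mouse strains, and whether this touches the H2 and Psmb probe sets was not tested either.

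**Figure D3:**
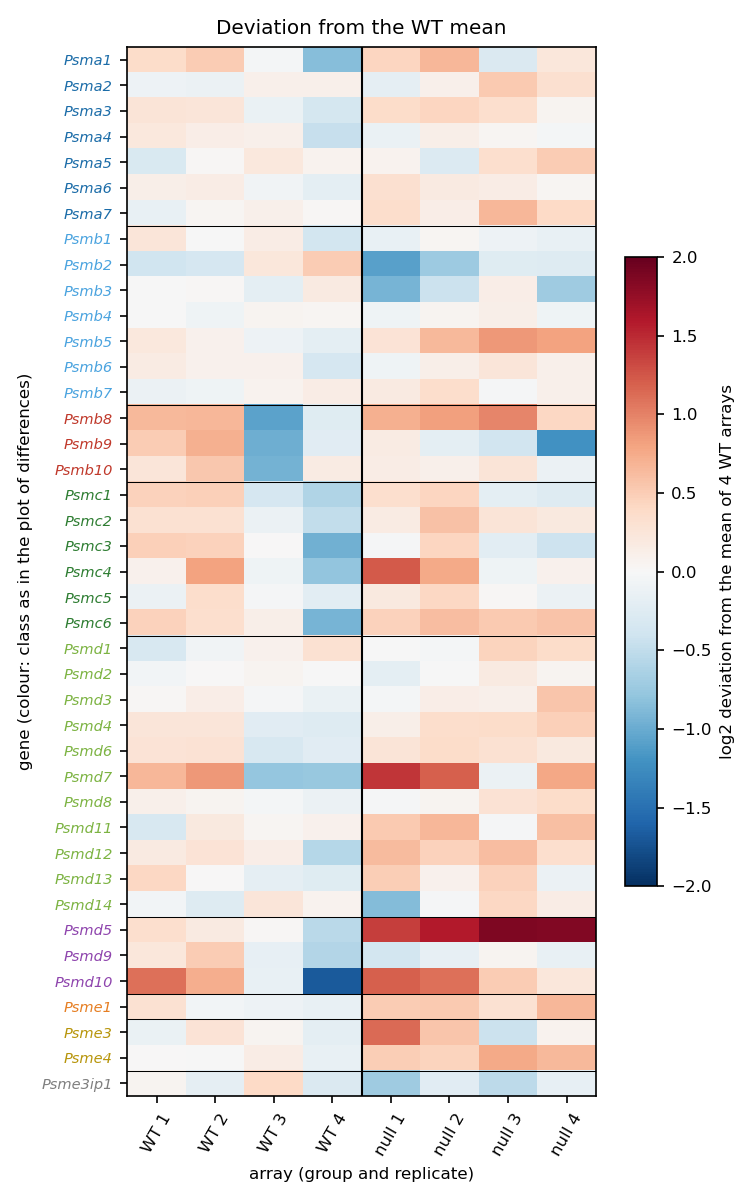
Heat map of the log2 deviation of 41 Psm genes (lines of the map, gene names coloured by class) from the mean of the 4 WT arrays on each of 8 arrays (columns); red is above and blue below that mean. Psmd5 is red on all 4 null arrays, and WT replicate 4, the lowest of all 8 arrays in 23 of 40 proteasome genes, is mostly blue.

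The arrays differed in how they ranked. WT replicate 4 had the lowest of all 8 values in 23 of 40 proteasome genes, against 5 for WT replicate 1 and null replicate 1, 4 for WT replicate 3 and at most 2 for the others. Such ranks were not counted over all genes. The median deviation of the proteasome genes from the WT mean was 0.19, 0.17, -0.02 and -0.22 on the WT arrays and 0.19, 0.36, 0.25 and 0.17 on the null arrays. For all genes tested it was 0.16, 0.12, -0.08 and -0.17 on the WT arrays and 0.10, 0.16, 0.06 and 0.10 on the null arrays. WT replicates 3 and 4, the arrays with narrow distributions, had the lowest medians of the 8 arrays in both sets. Without WT replicates 3 and 4 the median proteasome difference was 0.05, against -0.04 for all genes. With quantile normalization it was 0.11, against -0.01 for all genes.

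Where several probe sets of a gene stood above the low-value limit, they mostly had 1 sign. This held for 13 of 14 such genes, 12 of them above 0, and Psma5 had both signs, at -0.01 and 0.16. The gap between probe sets exceeded 0.5 in Psmb4 and Psmd11. Of the 76 probe sets, 60 were above the limit, and 2 were called higher in the fit over all 22626 probe sets, where 2.09% were called higher. They were the Psmd5 probe set and a dimmer Psme4 probe set, which read 6.26, 6.21, 6.86 and 5.99 in WT and 7.14, 7.03, 7.82 and 7.52 in null livers. Its difference was 1.05 ± 0.24 (SE), with limma adjusted p = 0.0484. The remaining Psme4 probe set differed by 0.59, with adjusted p = 0.215. The dimmer Psme4 probe set was no longer called when any array but WT replicate 3 was left out, with adjusted p up to 0.130, and was called with the replicate number as a block, at 0.0213. Psmd11, a lid scaffold gene with 6 probe sets, had 4 above the limit, at 0.44, 0.65, 1.19 and 0.64 from brightest to dimmest. With the replicate block, those at 0.65 and 1.19 were also called, with limma adjusted p = 0.0497 and 0.0495, against 0.12 and 0.151 without it. That fit called 2.84% of all probe sets higher. The Psme4 probe set lost its call with quantile normalization (adjusted p = 0.103), with each array centred on its median (0.0859) and without WT replicates 3 and 4, settings that called 1.91%, 1.99% and 1.09% of all probe sets higher.

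**Figure D4:**
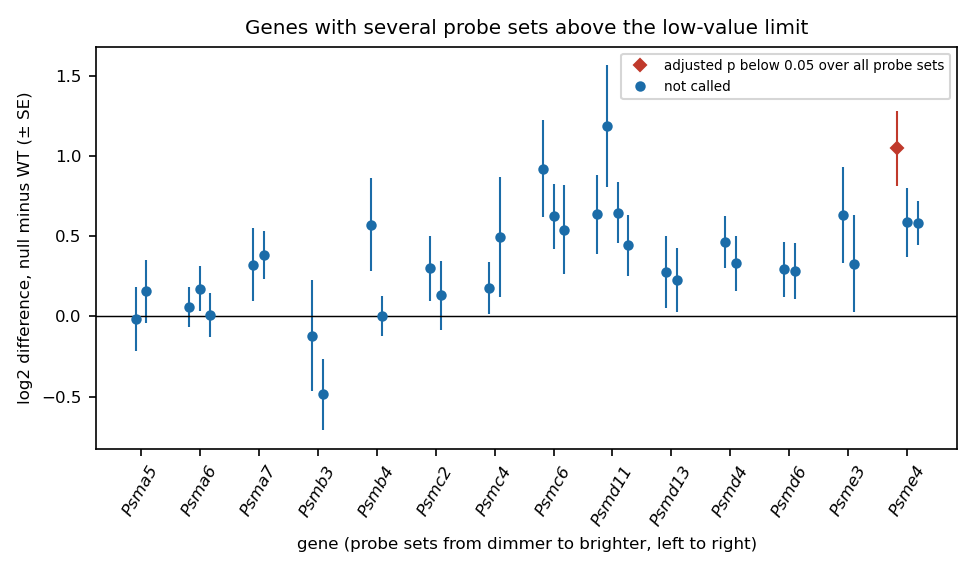
Log2 difference, TrxR1/Gsr-null minus WT, with its SE for each probe set above the low-value limit in the 14 genes that have several, ordered from dimmer to brighter; the diamond marks an adjusted p below 0.05 over all probe sets. The dimmest Psme4 probe set, at 1.05, is the one called, and Psmd11 spans 0.44 to 1.19.

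The wider pathway was described by lists of genes that deliver substrate to the proteasome, build it or control it. Ubiquitin receptors and deubiquitinases that bind the proteasome had 2 of 9 tested members called higher, against 4.47% of all genes. All 9 differences were above 0, against 60.1% of all genes, and their median was 0.69 against 0.10. Ubqln2, a shuttle that carries ubiquitinated proteins to the proteasome, read 8.81, 8.93, 9.01 and 8.52 in WT and 10.02, 9.68, 9.83 and 9.85 in null livers. The groups did not overlap, and it rose 2.04-fold with limma adjusted p = 0.00791. With all its probe sets averaged the difference was 0.38, with adjusted p = 0.110. The related shuttle Ubqln4 read 6.93, 7.26, 6.69 and 6.996 in WT and 7.83, 7.83, 7.45 and 7.71 in null livers. It rose 1.67-fold with limma adjusted p = 0.0437, a call kept only without WT replicate 2 or null replicate 3 among the 8 fits that left out 1 array, where p reached 0.132, and lost with quantile normalization (0.0825).

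The p97 complex, an ATPase that extracts ubiquitinated proteins for the proteasome, had 2 of 13 tested members called higher, against 4.47% of all genes, and a median of 0.19 against 0.10. Ubxn4, which ties p97 to the endoplasmic reticulum, read 9.06, 9.17, 8.74 and 8.94 in WT and 10.01, 10.09, 9.68 and 9.73 in null livers. It rose 1.87-fold without overlap, with limma adjusted p = 0.0171, and was not called without WT replicate 3 or null replicate 1 or 2, where p reached 0.0646. Nploc4, the p97 cofactor that reads ubiquitin chains, read 7.09, 7.08, 6.69 and 6.65 in WT and 7.68, 7.63, 7.50 and 7.51 in null livers. It rose 1.63-fold with limma adjusted p = 0.0435, a call lost without any array but WT replicate 1, where p reached 0.126, and with quantile normalization (0.0601). Vcp, p97 itself, differed by 0.27 ± 0.18 (SE).

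No gene on the separate lists of assembly and inhibitor genes, ubiquitin supply and Nrf1 processing was called. Of 8 assembly and inhibitor genes 0 were called, with a median of 0.15, and the core assembly chaperones Psmg1, Psmg2 and Psmg3 differed by 0.13, 0.10 and 0.17. Of 7 ubiquitin supply genes 0 were called, and the conjugating enzymes Ube2d1, Ube2d2a and Ube2d3 differed by -0.21, 0.63 and 0.18. Of 8 genes of Nrf1 and its processing 0 were called, 3 differences were above 0 and 5 below, and the median was -0.14. The differences on this list ran from -0.79 to 0.73. Nfe2l1, which encodes Nrf1, read 5.70, 6.06, 6.07 and 5.97 in WT and 5.65, 5.55, 6.39 and 6.15 in null livers, and differed by -0.01 ± 0.22 (SE). Ngly1, the glycanase that processes Nrf1, had the highest difference on this list, 0.73 ± 0.22 (SE), with limma adjusted p = 0.0834. On the same arrays 22 of 29 tested Nrf2 targets were called higher, against 4.47% of all genes, with a median difference of 2.01. This list includes Txnrd1, a gene named in the null label whose probe set was higher in the null livers, and leaves out Gsr.

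**Figure D5:**
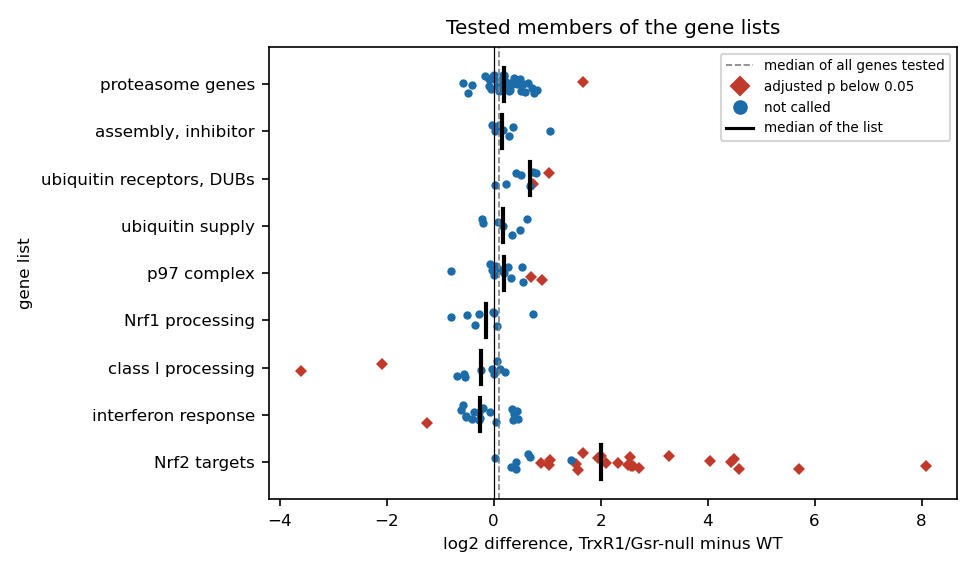
Log2 difference, TrxR1/Gsr-null minus WT, of each tested gene in 9 lists (points, shifted vertically at random), with the list median as a black bar, called genes as diamonds and the median of all genes as a dashed line. Proteasome genes centre on 0.19 with Psmd5 apart at 1.67, and Nrf2 targets centre on 2.01.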

How the data were processed

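Liver RNA of 8 mice was measured on 1 array each. The deposited table holds 1 log2 value per probe set and array, which the authors made with GCRMA, per the submitters' processing notes (version and settings: not given in the sources used here). That the scale is log2 was read from the values. GCRMA models background by probe sequence, so differences near background depend on it. Precision rests on having 4 arrays per group.

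Of 22690 probe sets, 20380 had 1 gene symbol in the platform annotation, 691 several, 1555 none and 64 were controls; 20351 gene identifiers matched the RefSeq table of GRCm38.p6, which gave current names, gene order and promoter sequences. The build of the array annotation is not named. Each gene was represented by its probe set with the highest mean over the 8 arrays, those ending in _x_at set aside where another kind existed. The null and WT groups were tested in R 4.3.3 by limma 3.58.1 (lmFit, eBayes, two-sided, Benjamini-Hochberg), over genes and over all probe sets without the filter on low values. The scripts were checked on simulated data.

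Replicate numbers come from the titles. The labels do not say that same-numbered animals belong together. Deviations from the group means correlated at 0.21 to 0.37 in the 4 same-numbered pairs. Deviations within a group cancel for each gene, so an array's covariances with the 4 arrays of the other group cancel too. Same-numbered arrays therefore deviated together more than differently numbered arrays did on average. What same-numbered arrays share was not tested. The main test used no block, and a blocked value stands beside a result whose call it alters. The labels name biological replicates, and no batch.

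All member genes could be named; of the other lists, called members (up to 4 per direction by adjusted p) or, where none was called, the first 3 measured. Vcp, Tap1, Ngly1 and the neighbours of Psme4 were named beside these after their values were seen. The members and lists were chosen with earlier results of these data known. Alternatives covered the filter, probe set choice, scaling, the replicate block or split, array weights, the variance prior and left-out arrays.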

Additional observations from a re-analysis of the deposited data

Results flagged for a closer look

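In 3 of 82 groups of 4 values examined, 1 array stood apart from the rest by Dixon's criterion at the 95% level, which chance alone meets in about 1 in 20 groups. All 3 were WT replicate 4. Psma4 was 10.11 there against 10.68 to 10.78 on the other WT arrays. Psmb6 was 10.43 against 10.84 to 10.92, and Psmd12 was 9.09 against 9.79 to 9.93. Without that array the null minus WT differences were -0.15 for Psma4, -0.014 for Psmb6 and 0.32 for Psmd12, and none was called.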

How the results depend on the processing

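The call of Psmd5 held under all of its 21 settings, and no proteasome gene was called lower except under 1 setting. The count of proteasome genes called higher was 1, and became 2 with the lowest 60% of genes left out or with the mean of all probe sets (Psme4 added), 3 with array weights or with a trended, robust prior (Psme4 and Psmb5 added), and 4 higher (Psme4, Psmb5 and Psmd7 added) and 1 lower (Psmb2) with replicates 1 and 2 against 3 and 4 as a covariate. With the replicate block, 4 probe sets were called higher against 2, and no call of a gene named in the text changed; 1 was called with quantile normalization, with each array centred on its median and without WT replicates 3 and 4, and 1 to 2 with 1 array left out. The median difference of all proteasome genes was 0.39 within replicates 3 and 4. That of the core was 0.051 within replicates 1 and 2, 0.25 within replicates 3 and 4, 0.042 without WT replicates 3 and 4, 0.071 with array weights, and 0.061 to 0.16 with 1 array left out, lowest without WT replicate 4. The median of the 3 immunoproteasome genes and Psme1 was 0.30, but -0.11 without WT replicates 3 and 4.

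Signs turned in genes that were not called. With array weights the differences were -0.18 for Psmb10, -0.0041 for Psmb6, -0.065 for Psmc1 and -0.021 for Psmd2. With each array centred they were -0.064 for Psmb4 and -0.063 for Psmd2, and with quantile normalization -0.062 for Psmb10, -0.028 for Psmb4, -0.030 for Psmc1 and -0.095 for Psmd2. Psmc1 was -0.091 with the mean of all probe sets, and Psmb1 was 0.17 with probe sets that match 1 transcript. Within replicates 1 and 2 the values were -0.27 for Psmb10, -0.11 for Psmb6, -0.083 for Psmc1, -0.085 for Psmd2, -0.024 for Psmd3, -0.0051 for Psmd4 and -0.061 for Psmd8. Within replicates 3 and 4 they were 0.17 for Psma4, -0.029 for Psmb4, -0.065 for Psmb7, 0.16 for Psmc3, 0.13 for Psmd14, 0.32 for Psmd9 and -0.11 for Psme3. Without WT replicates 3 and 4 they were -0.19 for Psma1, -0.29 for Psmb10, -0.028 for Psmb6, -0.39 for Psmc1, -0.0026 for Psmc2, -0.15 for Psmd10 and 0.075 for Psmd14. With 1 array left out, Psma1 ran from -0.025 to 0.44, Psma4 from -0.15 to 0.068, Psmb10 from -0.22 to 0.27, Psmb4 from -0.040 to 0.031, Psmb6 from -0.014 to 0.15, Psmc1 from -0.12 to 0.24, Psmc3 from -0.37 to 0.10, Psmd14 from -0.25 to 0.18, Psmd2 from -0.054 to 0.071 and Psmd9 from -0.35 to 0.014. The cause was not tested. With 4 arrays per group, 11 of 40 proteasome genes had intervals that reach past a 2-fold change.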

Other observations

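Psme2, which encodes PA28 beta, the partner of Psme1, shares its probe set with Psme2b and so falls outside the rule. That probe set read 10.05, 9.87, 9.58 and 8.92 in WT and 9.98, 9.94, 9.71 and 9.39 in null livers. The groups overlapped, and the difference was 0.15 ± 0.25 (SE), with a 95% interval from -0.42 to 0.71 and limma adjusted p = 0.810 over all probe sets.

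The spread among null livers was smaller than among WT livers in 26 of 40 proteasome genes, with median SDs of 0.23 and 0.27. The same count was not made over all genes, so it cannot be called particular to proteasome genes. Psme3ip1, a symbol match that encodes a partner of the PA28 gamma activator, differed by -0.41 ± 0.21 (SE), with limma adjusted p = 0.295, and Psmc3ip, a recombination factor, stayed below the low-value limit on 7 of 8 arrays.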
